A study of Mus musculus with 6 samples.

Results

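The genes described here make and load the peptides that MHC class I molecules present: the 3 inducible proteasome subunits Psmb8, Psmb9 and Psmb10, the PA28 activator genes Psme1 and Psme2, the peptide transporter genes Tap1 and Tap2, and Tapbp, Erap1 and Calr. Members were all probe sets to which the platform annotation gave exactly 1 gene symbol from these 10 genes. That gave 17 of the 45101 probe sets on the array, for 9 of the 10 genes (of 18193 genes with such a probe set in all), and 15 of the 17 were bright enough to test. Psme2 had no such probe set, because the annotation gives the symbols Psme2b and Psme2 together for the same probe set, and no value is given for it. The tissue is thymus, and its RNA was hybridised to 6 Affymetrix arrays of 1 colour. Of these, 3 were hybridised with RNA of (AKR/J x FVB/NJ)F1 mice (the AKR cross) and 3 with RNA of (DBA/2J x FVB/NJ)F1 mice (the DBA cross), all of them adult females. Every mouse carried an FVB/NJ genome copy, so the crosses differ in the copy from the other parent, and no group was treated. The labels name neither separate animals nor pools, so a p-value here reflects only how far these samples scatter, and that scatter may be technical.

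Cells cut cytosolic proteins with the proteasome, and the TAP transporter moves the resulting peptides into the endoplasmic reticulum, where class I molecules are loaded. In the immunoproteasome, which interferon gamma induces and which lymphoid cells also make constitutively, the subunits of Psmb8, Psmb9 and Psmb10 replace the catalytic subunits of Psmb5, Psmb6 and Psmb7. In the thymus, cortical epithelial cells make a further form that contains the subunit of Psmb11, and peptides shown on thymic cells are used to select CD8 T cells. Psmb8, Psmb9, Tap1, Tap2 and Tapbp lie in the H2 region on chromosome 17, the mouse MHC, and the AKR/J, DBA/2J and FVB/NJ strains carry different H2 haplotypes.

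Each array gave log2 values with a median between 5.92 and 5.95. Differences are log2 values, AKR cross less DBA cross, with a standard error (SE), and a difference was called when limma with Benjamini-Hochberg adjustment over 27385 tested probe sets gave an adjusted p under 0.05. The number of arrays limits the precision. As a check of the tissue, 9 of 10 thymocyte genes had a tested probe set, above the 40th percentile on all 6 arrays, with mean log2 levels of 11.35 to 11.48 on the AKR arrays, against 11.30 to 11.35 on the DBA arrays. A level in whole tissue does not tell fewer cells of a type from less RNA per cell. Values are probe set signals, and whether the probes match the alleles of both crosses equally well was not tested.

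Differences in the group were small. Of the 15 tested probe sets, 4 were called higher in the AKR cross (Psmb8, Psmb9 and 2 of the 3 for Calr), 1 was called lower (Erap1), and 10 did not pass. These 5 calls were 33.3% of the member probe sets, against 27.2% of all tested probe sets. By the brightest tested probe set of each gene, 2 of 9 members were called higher and 0 lower. That is 22.2% called, against 25.0% of all genes counted in the same way. Among all tested probe sets 12.2% were called higher and 15.0% lower. The median member difference was 0.12 and the median over all tested probe sets was 0.01, while the median size without the sign was 0.20 for the members and 0.18 for all. The groups did not overlap for 8 of the 15, against 44.7% of all tested probe sets. The largest difference was 1.44-fold, and 12 of the 15 were under 1.2-fold.

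**Figure D1:**
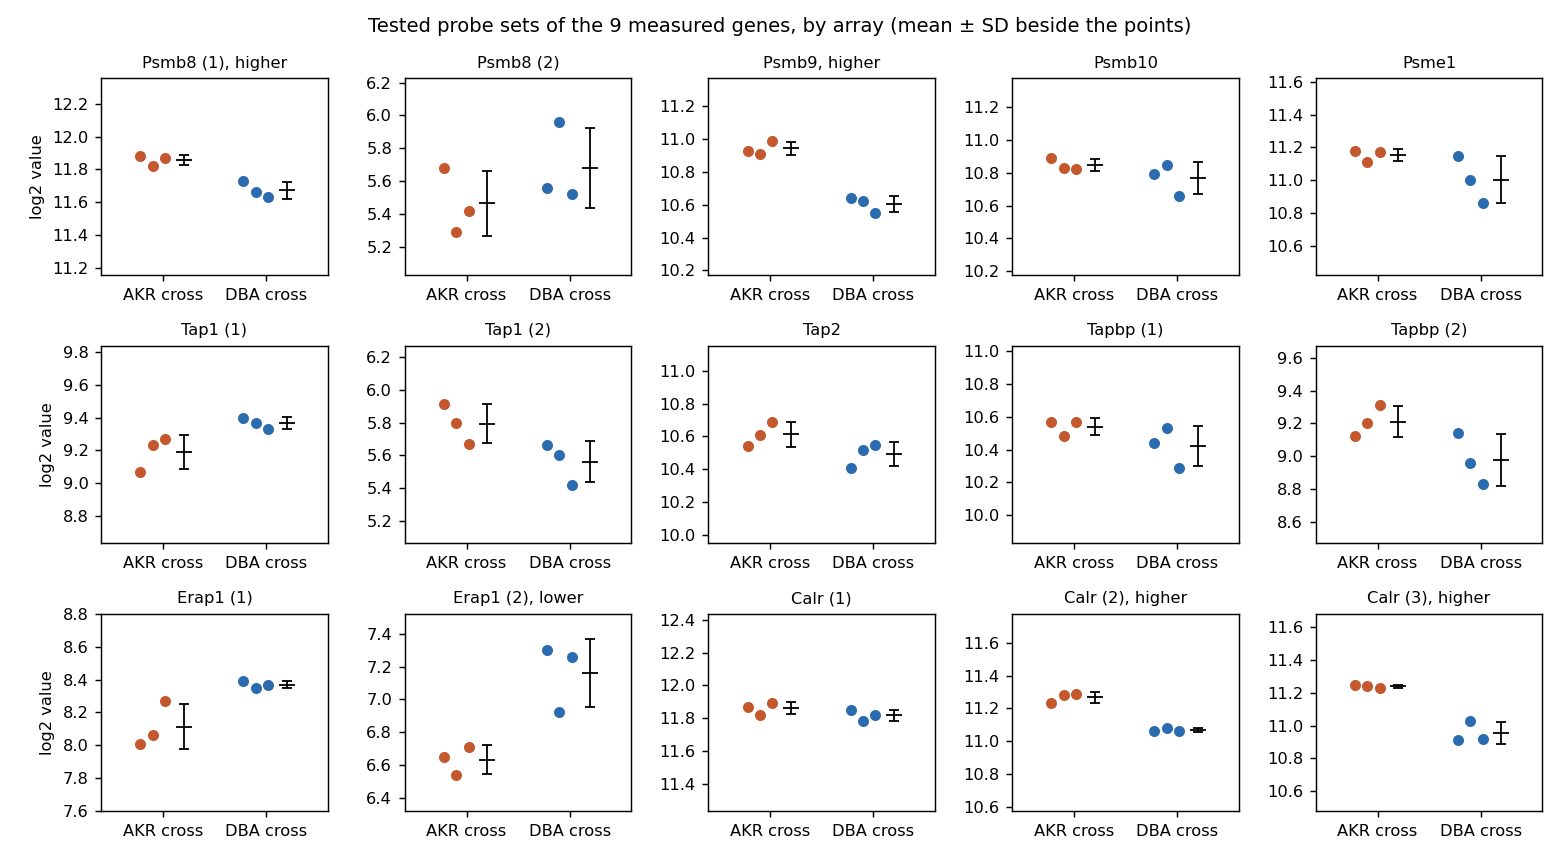
Log2 values of the 15 tested probe sets on the 3 AKR and 3 DBA arrays (points), with the mean and SD beside them. Every panel spans the same log2 distance, numbers in brackets order a gene's probe sets from brightest to dimmest, and "higher" or "lower" marks the 5 calls; Psmb9 and the last Calr panel show the AKR points wholly above the DBA points, and the second Erap1 panel shows them wholly below.

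Replicates lay close together. The median SD over the 15 probe sets was 0.0486 on the AKR arrays and 0.0718 on the DBA arrays, against 0.105 and 0.108 over all tested probe sets. Brightness was not matched in this comparison, and its part was not tested. The bright Psmb8 probe set had SDs of 0.03 (AKR) and 0.05 (DBA), and the dim one 0.20 and 0.24. DBA replicate 3 was the lowest of the DBA arrays for 9 of the 15 and the highest for 1. Among the AKR arrays, replicate 2 was the lowest for 7 and the highest for 0.

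Of the 3 inducible subunit genes, Psmb9 had the largest difference. It encodes the beta1i subunit that replaces beta1. Its only probe set read 10.93, 10.91 and 10.99 on the AKR arrays, against 10.64, 10.62 and 10.55 on the DBA arrays. The groups did not overlap. The difference was 0.34 ± 0.05 (SE, 1.27-fold, adjusted p = 0.00222, limma), and it stayed called in all 15 alternative settings of the fit that were run, with adjusted p-values from 0.00092 to 0.0123.

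Psmb8, which encodes the chymotrypsin-like subunit beta5i, moved in the same direction by less. Its bright probe set read 11.88, 11.82 and 11.87 in the AKR cross against 11.73, 11.66 and 11.63 in the DBA cross. All AKR arrays lay above all DBA arrays, by 0.19 ± 0.05 (SE, 1.14-fold, adjusted p = 0.0185, limma). With a single array left out, limma no longer called it in 4 of 6 fits, namely when AKR replicate 1 (adjusted p = 0.0545), AKR replicate 3 (0.0559), DBA replicate 2 (0.0609) or DBA replicate 3 (0.0603) was absent, nor did it without the intensity trend (0.0916). The dim second probe set of Psmb8 overlapped between the crosses, at 5.46 ± 0.20 in the AKR cross against 5.68 ± 0.24 in the DBA cross (SD, n = 3 each), and did not pass. This dim probe set carries the suffix that Affymetrix gives to probe sets that can match several transcripts.

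Psmb10, on chromosome 8, encodes the trypsin-like subunit beta2i. Its values were 10.89, 10.83 and 10.82 on the AKR arrays, against 10.79, 10.85 and 10.66 on the DBA arrays, so that the groups overlapped. The difference of 0.08 did not pass (95% confidence interval -0.06 to 0.22, adjusted p = 0.384, limma).

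The RefSeq promoter windows of the 2 called subunit genes (build GRCm38.p6, 250 bases before to 50 bases after the start) are shown because Psmb9 shares most of its window with Tap1, of which no tested probe set was called. The windows of Psmb9 and Tap1 face opposite ways and overlap by 275 of their 300 bases. In the Psmb9 window (chr17:34187281-34187580, minus strand) capitals mark a GC box (GGGCGG) and a CCAAT box, and in the Psmb8 window (chr17:34197945-34198244, plus strand) they mark a match to the interferon gamma element GAS, written TTCNNNGAA. The letters come from the C57BL/6J reference and not from the strains compared.
Psmb9: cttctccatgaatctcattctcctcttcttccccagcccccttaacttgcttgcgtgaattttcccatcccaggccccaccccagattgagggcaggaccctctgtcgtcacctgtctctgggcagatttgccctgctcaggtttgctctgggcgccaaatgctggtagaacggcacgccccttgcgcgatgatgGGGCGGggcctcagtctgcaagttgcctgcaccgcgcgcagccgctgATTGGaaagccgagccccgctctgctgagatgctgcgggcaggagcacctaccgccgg
Psmb8: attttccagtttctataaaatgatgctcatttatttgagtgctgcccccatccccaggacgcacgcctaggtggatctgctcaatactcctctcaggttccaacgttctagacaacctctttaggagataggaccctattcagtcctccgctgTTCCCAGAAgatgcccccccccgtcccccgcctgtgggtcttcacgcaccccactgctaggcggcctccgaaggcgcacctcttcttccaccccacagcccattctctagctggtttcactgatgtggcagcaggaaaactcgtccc

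Promoter windows were available for 9 of the 10 genes, Tap2 being the other. Motifs were searched on both strands in all 32817 windows of the table outside chromosome 18. GAS letters stood in 8.29% of these windows and in that of 1 of the 9 genes, Psmb8. The core of the interferon-stimulated response element (ISRE), GAAANNGAAA, stood in 3.43% of all windows and in those of Erap1 and Psme1. GC boxes stood in 35.6% of all windows and in 7 of the 9 genes, and CCAAT in 37.4% and in 4 of the 9. A match describes letters and no binding site.

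To ask whether an inducible subunit and the subunit it replaces differed alike, the log2 ratio of both was taken within each array. The level of such a ratio has no meaning across probe sets, and its shift between crosses shows unequal change. For Psmb9 to Psmb6 the ratio was -0.30, -0.21 and -0.19 on the AKR arrays, against -0.06, -0.05 and -0.04 on the DBA arrays, with no overlap. Psmb6, which encodes the constitutive subunit beta1, was itself higher in the AKR cross by 0.52 ± 0.06 (SE, adjusted p = 0.000258, limma), more than Psmb9. The ratio was thus shifted by -0.18 (exact permutation p = 0.1, two-sided, the smallest that 3 against 3 arrays can give, and 0.3 adjusted over the 3 pairs).

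The other pairs overlapped between the crosses. For Psmb8 to Psmb5, the shift was -0.03 (exact permutation p = 0.5, adjusted 0.7), with ratios of 0.57 ± 0.05 in the AKR cross against 0.60 ± 0.06 in the DBA cross (SD, n = 3 each). With all probe sets of each gene averaged, which brings in the dim Psmb8 probe set, this shift was -0.23. For Psmb10 to Psmb7, the ratios were -1.07 ± 0.08 in the AKR cross against -1.04 ± 0.10 in the DBA cross (SD, n = 3 each), a shift of -0.03 (exact permutation p = 0.7, adjusted 0.7). Psmb5, the gene of beta5, was higher in the AKR cross by 0.22 ± 0.06 (SE, adjusted p = 0.0311, limma), but it did not pass when AKR replicate 1 (0.0916), AKR replicate 2 (0.0705), DBA replicate 2 (0.0588) or DBA replicate 3 (0.0885) was left out. Without the intensity trend Psmb5 did not pass either (adjusted p = 0.0852, limma). Psmb7, the gene of beta2, differed by 0.11 and did not pass (adjusted p = 0.0984, limma).

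**Figure D2:**
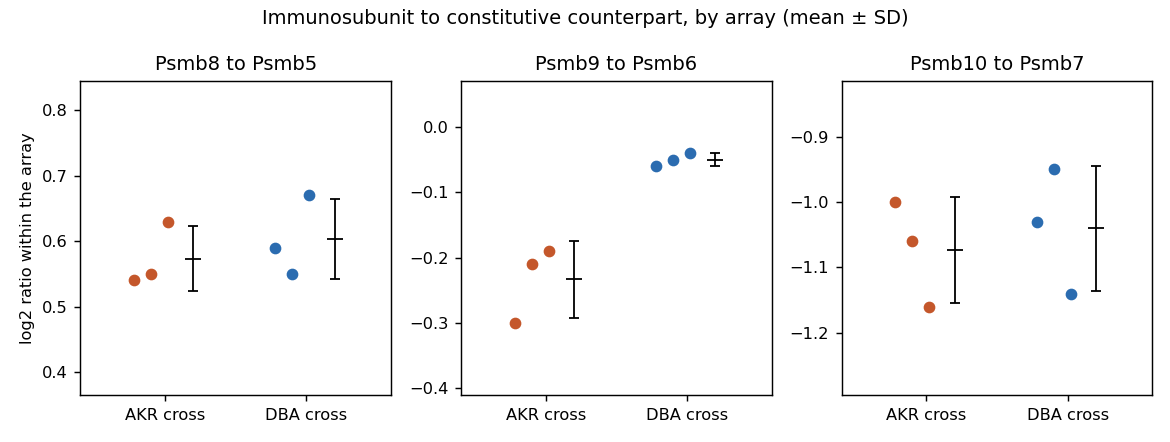
Log2 ratio within each array of an inducible subunit to the constitutive subunit it replaces, for the 3 AKR and 3 DBA arrays (points) with mean and SD. Only for Psmb9 to Psmb6 do the groups not overlap, with AKR ratios of -0.30 to -0.19 and DBA ratios of -0.06 to -0.04.

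Psme1 encodes the alpha subunit of PA28, a cap that opens the proteasome core and is itself induced by interferon gamma. The probe set read 11.18, 11.11 and 11.17 on the AKR arrays, against 11.15, 11.0 and 10.86 on the DBA arrays. DBA replicate 1 lay among the AKR values and the other DBA arrays below them. The difference of 0.15 ± 0.07 (SE) did not pass (adjusted p = 0.154, limma), and without DBA replicate 1 it was 0.23 and was called (adjusted p = 0.0422, limma). The Psme1 promoter window (chr14:55578244-55578543, plus strand, GRCm38.p6, RefSeq) is shown with that of Erap1 (chr13:74639603-74639902, plus strand), because these hold the ISRE letters among the members. Capitals mark the match, which lies on the opposite strand in both and begins at base -4 in Erap1 and at base 10 in Psme1, counted from the start.
Psme1: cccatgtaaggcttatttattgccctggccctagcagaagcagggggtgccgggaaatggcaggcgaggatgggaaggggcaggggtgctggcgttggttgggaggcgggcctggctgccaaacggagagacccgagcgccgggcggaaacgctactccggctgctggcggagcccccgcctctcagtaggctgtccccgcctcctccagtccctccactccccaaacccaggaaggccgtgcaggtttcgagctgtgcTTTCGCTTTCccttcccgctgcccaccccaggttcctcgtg
Erap1: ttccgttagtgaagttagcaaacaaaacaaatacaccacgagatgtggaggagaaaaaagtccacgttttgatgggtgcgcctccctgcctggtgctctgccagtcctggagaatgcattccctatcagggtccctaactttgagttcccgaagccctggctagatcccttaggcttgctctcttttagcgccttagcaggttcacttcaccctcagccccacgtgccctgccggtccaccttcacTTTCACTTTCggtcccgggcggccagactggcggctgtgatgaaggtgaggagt

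Tap1 and Tap2 encode the 2 chains of the peptide transporter, and no tested probe set of either was called. For Tap1 the brightest probe set read 9.07, 9.23 and 9.27 in the AKR cross against 9.40, 9.37 and 9.33 in the DBA cross, a difference of -0.18 ± 0.07 (SE, adjusted p = 0.105, limma). A dimmer Tap1 probe set read 5.91, 5.80 and 5.67 in the AKR cross against 5.66, 5.60 and 5.42 in the DBA cross, a difference of 0.24 ± 0.11 (SE, adjusted p = 0.137, limma). In both, the crosses did not overlap, but the AKR arrays were the lower group in the bright probe set and the higher group in the dim one. The 2 Tap1 probe sets left untested, because no array put them above its 40th percentile, read 3.58 ± 0.11 and 3.13 ± 0.06 in the AKR cross, against 3.64 ± 0.24 and 2.93 ± 0.10 in the DBA cross (SD, n = 3 each). For Tap2 the values were 10.54, 10.61 and 10.69 on the AKR arrays, against 10.41, 10.52 and 10.55 on the DBA arrays. The Tap2 groups overlapped slightly, and the difference of 0.12 did not pass (95% confidence interval -0.03 to 0.26, adjusted p = 0.196, limma).

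Tapbp encodes tapasin, which bridges the transporter and the class I molecule. Its brighter probe set read 10.57, 10.48 and 10.57 in the AKR cross against 10.44, 10.53 and 10.29 in the DBA cross, and the dimmer one read 9.12, 9.20 and 9.31 in the AKR cross against 9.14, 8.96 and 8.83 in the DBA cross. Each pair of groups overlapped through 1 DBA array, replicate 2 in the brighter and replicate 1 in the dimmer probe set. The differences were 0.12 (adjusted p = 0.233, limma) and 0.23 (adjusted p = 0.0962, limma). The dimmer probe set was called without DBA replicate 1 (0.31, adjusted p = 0.0404, limma) and after quantile normalization (0.28, adjusted p = 0.0391).

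Erap1, on chromosome 13, encodes the peptidase that trims peptides to length inside the endoplasmic reticulum. It was the only member with a probe set called lower in the AKR cross. The dimmer of its probe sets read 6.65, 6.54 and 6.71 in the AKR cross against 7.30, 6.92 and 7.26 in the DBA cross. All AKR arrays lay below all DBA arrays, with a difference of -0.52 ± 0.12 (SE, 1.44-fold, adjusted p = 0.0115, limma), and the call held in all 15 alternative settings run. The brighter probe set read 8.01, 8.06 and 8.27 in the AKR cross against 8.39, 8.35 and 8.37 in the DBA cross, again with no overlap. Its difference of -0.26 ± 0.09 (SE) did not pass (adjusted p = 0.0594, limma), and it passed in 3 of 15 alternative settings, including without AKR replicate 3 (adjusted p = 0.0288, limma), the AKR array nearest to the DBA arrays.

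Calr encodes calreticulin, a calcium-binding chaperone that holds newly made class I molecules for loading. The brightest Calr probe set hardly differed, at 11.87, 11.82 and 11.89 on the AKR arrays against 11.85, 11.78 and 11.82 on the DBA arrays (0.04, 95% confidence interval -0.06 to 0.14, adjusted p = 0.51, limma). The second read 11.23, 11.28 and 11.29 in the AKR cross against 11.06, 11.08 and 11.06 in the DBA cross. The third read 11.25, 11.24 and 11.23 in the AKR cross against 10.91, 11.03 and 10.92 in the DBA cross. In the last 2 the groups were separate, with differences of 0.20 ± 0.05 (SE, adjusted p = 0.0149, limma) and 0.29 ± 0.05 (SE, adjusted p = 0.00437, limma). Both carry the suffix that Affymetrix gives to probe sets that can match several transcripts, so the probe sets of this gene do not give a single answer. Without the intensity trend the second was not called (adjusted p = 0.0671, limma). The Calr promoter window (chr8:84846882-84847181, minus strand, GRCm38.p6, RefSeq) is shown because it holds the letters of the endoplasmic reticulum stress element, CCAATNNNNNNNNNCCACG, in capitals, on the strand opposite to the gene and overlapping a CCAAT box. These letters stood in 0.119% of all windows and in 1 of the 9 genes.
Calr: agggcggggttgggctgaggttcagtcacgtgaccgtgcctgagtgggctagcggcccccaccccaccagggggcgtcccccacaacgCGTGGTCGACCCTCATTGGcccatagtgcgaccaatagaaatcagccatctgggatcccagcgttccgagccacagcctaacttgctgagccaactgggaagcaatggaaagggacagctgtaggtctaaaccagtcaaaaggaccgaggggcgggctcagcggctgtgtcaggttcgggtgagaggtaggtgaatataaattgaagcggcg

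**Figure D3:**
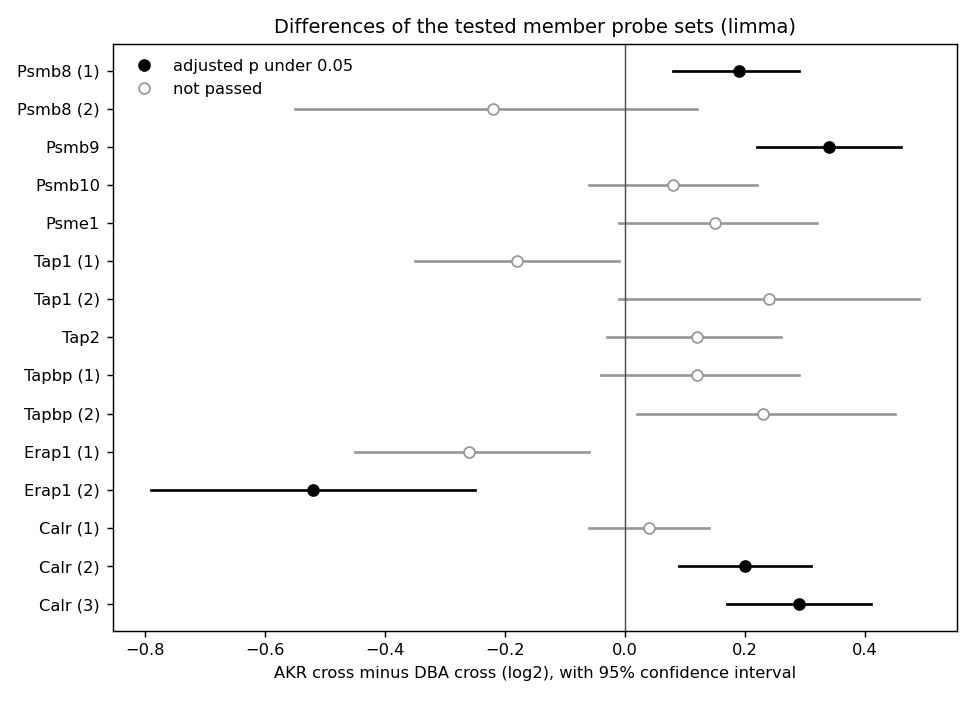
Log2 difference, AKR cross less DBA cross, of the 15 tested probe sets, with 95% confidence intervals from limma. Filled points are the 5 calls, from -0.52 for the dimmer Erap1 probe set to 0.34 for Psmb9, and the probe sets of Tap1 and of Psmb8 lie on both sides of 0.

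By position, the 8 tested probe sets of the H2 genes on chromosome 17 had 2 called higher and 0 called lower, with a median of 0.15. The 7 on other chromosomes had 2 called higher and 1 lower, with a median of 0.08. These are 25.0% and 42.9% called, against 27.2% of all tested probe sets, so the share on chromosome 17 is near that of all, and no difference between the positions was tested. Psmb9, Tap1, Psmb8 and Tap2 stand next to each other in that order in the RefSeq gene table of GRCm38.p6, and the brightest probe sets of this run differed by 0.34, -0.18, 0.19 and 0.12. On the side of Psmb9, the nearest tested gene was H2-DMb2, a class II loading chaperone gene, which was lower in the AKR cross, with a difference of -0.59 ± 0.08 (SE, adjusted p = 0.00112, limma). On the side of Tap2 it was H2-Ob, another class II chaperone gene, which differed by -0.23 and did not pass (adjusted p = 0.233, limma).

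The nearest tested genes of Erap1 and of Calr differed in the direction of their called probe sets. Beside Erap1, Cast, which encodes the calpain inhibitor calpastatin, read 8.26, 8.52 and 8.46 on the AKR arrays, against 9.07, 9.25 and 9.21 on the DBA arrays. With all AKR arrays below the DBA arrays, the difference was -0.76 ± 0.09 (SE, adjusted p = 0.000484, limma). On the other side, the zinc finger gene Zfp825 was lower (-0.49, adjusted p = 0.0187, limma), and did not pass when AKR replicate 2 (0.0604), DBA replicate 1 (0.0522) or DBA replicate 3 (0.0638) was left out. The Zfp825 probe set carries the suffix for probe sets that can match several transcripts, and 3 untested genes lie between Zfp825 and Erap1. Beside Calr, Farsa, a subunit gene of phenylalanyl-tRNA synthetase, was higher by 0.55 ± 0.10 (SE, adjusted p = 0.00441, limma). Gadd45gip1, on the other side, was higher by 0.40 (adjusted p = 0.0328, limma), a call that was lost in 5 of the 6 fits that left out an array, with adjusted p-values of 0.0629 to 0.0935, and held without DBA replicate 1. The neighbours of Psmb10 (Ctrl and Lcat), of Psme1 (Fitm1 and Emc9) and of Tapbp (Zbtb22 and Rgl2) did not pass.

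**Figure D4:**
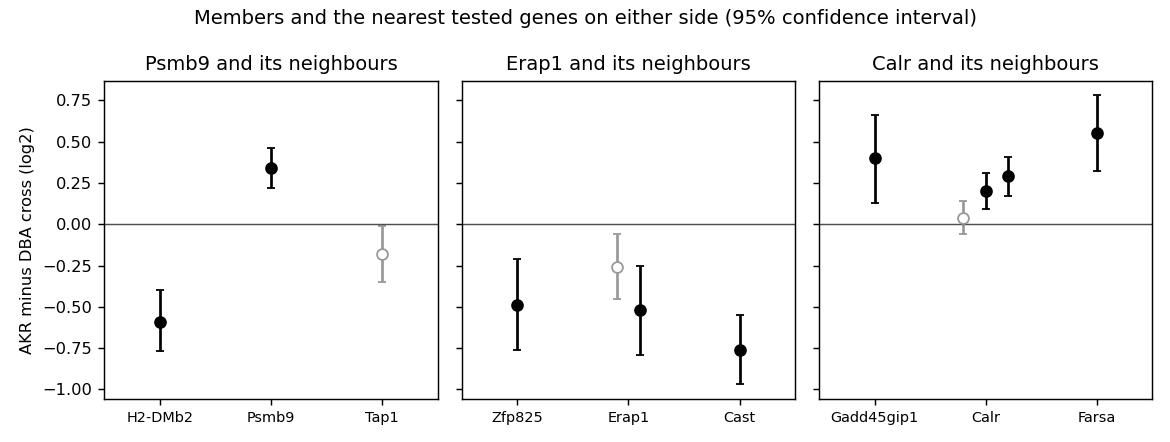
Log2 difference, AKR cross less DBA cross, with 95% confidence intervals, for the tested probe sets of Psmb9, Erap1 and Calr (centre of each panel) and the brightest probe set of the nearest tested gene on either side. Filled points are called; both neighbours of Erap1 lie below 0 (-0.49 and -0.76), both of Calr above it (0.40 and 0.55), and those of Psmb9 below it (-0.59 called, -0.18 not).

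Other genes of the class I pathway were set beside the members, each by its brightest tested probe set. Of 48 measured genes, 11 were called higher in the AKR cross, 7 lower and 30 did not pass, which is 37.5% called, against 25.0% of all 12855 genes (13.1% higher and 11.9% lower). Counted in the same way, 22.2% of the 9 measured members were called. The groups did not overlap for 27 of the 48 other genes, against 43.9% of all genes. The median over the 48 was 0.05 and over all genes 0.03. With each gene's probe sets averaged, 8 were higher and 9 lower, so the excess on the AKR side depends on how a gene is represented.

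Proteasome assembly and regulator genes had 4 of 8 members higher in the AKR cross and 0 lower by limma, with a median of 0.25. Of all genes, 13.1% were called higher and 11.9% lower. Of the 5 tested probe sets of Psme4, the gene of the activator PA200, the dimmest was called lower (-0.98, adjusted p = 0.0108, limma), and the brightest was not called (-0.16). That dimmest probe set was above the 40th percentile on 0 AKR and 3 DBA arrays. It was tested only through the DBA arrays, so its call and size depend on the filter and on values near the floor. Psme3, which encodes the nuclear activator PA28 gamma, was higher by 0.53 ± 0.07 (SE, adjusted p = 0.000813, limma), and its other probe set was also called higher. The assembly chaperone genes Psmg3 and Psmg4 were higher by 0.44 and 0.57. Psmf1, which encodes a proteasome inhibitor, was called higher on the brightest of its 4 probe sets (0.34), while the others were not called (0.34, 0.15 and -0.26). Pomp, the gene of the maturation factor that immunoproteasomes need for assembly, differed by 0.08 and did not pass. The replaced and thymic subunit list had 2 of 4 higher, Psmb5 and Psmb6. The fourth, Psmb11 of cortical epithelium, read 9.13, 9.14 and 9.28 on the AKR arrays, against 9.29, 9.29 and 9.34 on the DBA arrays, a difference of -0.13 that did not pass (adjusted p = 0.217, limma).

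The chaperones that work with calreticulin went both ways. Of 11 measured chaperone and translocation genes of the endoplasmic reticulum, 2 were called higher, 3 lower and 6 did not pass, which is 45.5% called, against 25.0% of all genes, and the median was 0.01. Canx, which encodes calnexin, the membrane-bound relative of calreticulin, read 11.01, 11.05 and 11.04 in the AKR cross against 10.36, 10.41 and 10.25 in the DBA cross, 1.61-fold higher (0.69 ± 0.06, SE, adjusted p = 8.08e-05, limma). All AKR arrays were above all DBA arrays, and of its 2 other probe sets 1 was also higher (0.54) and 1 was not called (0.07). The brightest Canx probe set carries a suffix for probe sets that can match several transcripts. The chaperone genes Hspa5 (-0.46) and Hsp90b1 (-0.43) were lower in the AKR cross, as was Pdia3 (-0.29), which encodes the disulfide isomerase ERp57 of the loading complex, and Pdia4 was higher (0.45). A dimmer probe set of Hspa5 (0.06) and one of Pdia3 (0.09) were not called. A dimmer probe set was called for Uggt1 (-0.42) and for Sec61a1 (0.28), whose brightest were not. The Pdia3 call was lost without DBA replicate 2 (adjusted p = 0.0539, limma). Tapbpl, the gene of the tapasin-related protein, differed by 0.15 and did not pass.

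Among 6 cytosolic peptidases, Thop1 was higher in the AKR cross (0.52) and Tpp2 (-0.24) and Npepps (-0.51) were lower, which is 50.0% called, against 25.0% of all genes. Other probe sets of these genes did not all follow. For Npepps, a probe set of similar brightness differed by 0.01 (adjusted p = 0.962, limma) and a dim one by -0.49 (adjusted p = 0.082), and the other probe set of Thop1 differed by 0.03 (adjusted p = 0.849). Of the other 4 probe sets of Tpp2, 2 were called lower (-0.50 and -0.26) and 2 were not (-0.35 and -0.10). Without DBA replicate 3 Npepps was not called (adjusted p = 0.0579, limma), and Tpp2 was not called without any of AKR replicates 1, 2 and 3 or DBA replicates 1 and 2 (0.0503 to 0.0865). Of the class I molecule itself, B2m, its light chain gene, differed by 0.09 and did not pass (adjusted p = 0.105, limma). The other B2m probe set, of similar brightness, differed by -0.04 with overlapping groups (adjusted p = 0.483, limma). The brightest probe sets of the heavy chain genes H2-K1 (-0.31) and H2-D1 (-0.21) were lower in the AKR cross. The H2-D1 call was lost without the intensity trend (adjusted p = 0.0699, limma). Of the other 7 probe sets of H2-D1, 5 were called lower, 1 higher and 1 was not called, and they ran from -4.03 (16.4-fold) to 4.73 (26.5-fold), so the value of the brightest does not stand for the gene. Whether these are differences in RNA or in how the probes match the H2 alleles was not tested. Of the other 3 probe sets of H2-K1, 1 was called lower (-0.41) and the rest were not called (-0.18 and 0.19). Every H2-K1 probe set carries the suffix for probe sets that can match several transcripts, so these values may not stand for H2-K1 alone. The same holds for the brightest H2-D1 probe set and for those at both ends of the H2-D1 range.

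Few regulators of these genes were called. Of 16 measured, 2 were called higher in the AKR cross and 0 lower by limma, with a median of 0.04. This is 12.5% called, against 25.0% of all genes. Dimmer probe sets of Irf8 (-0.52, adjusted p = 0.00321, limma) and Jak2 (-0.30, adjusted p = 0.0285, limma) were called lower, while the brightest of each were not (0.24 and -0.12). The NF-kappa-B subunit gene Rela was higher by 0.40 ± 0.06 (SE, adjusted p = 0.00219, limma), and Nfkb2 by 0.25 (adjusted p = 0.039). The Nfkb2 call was lost whichever single array was left out (adjusted p-values of 0.058 to 0.109, limma) and without the filter (0.0564). Another Nfkb2 probe set, of similar brightness, differed by 0.19 and was not called (adjusted p = 0.168, limma). The called Nfkb2 probe set carries the suffix for probe sets that can match several transcripts. Nlrc5, the class I transactivator gene, differed by -0.06, Irf1 by 0.12 and the receptor gene Ifngr1 by 0.05, and none of these passed.

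**Figure D5:**
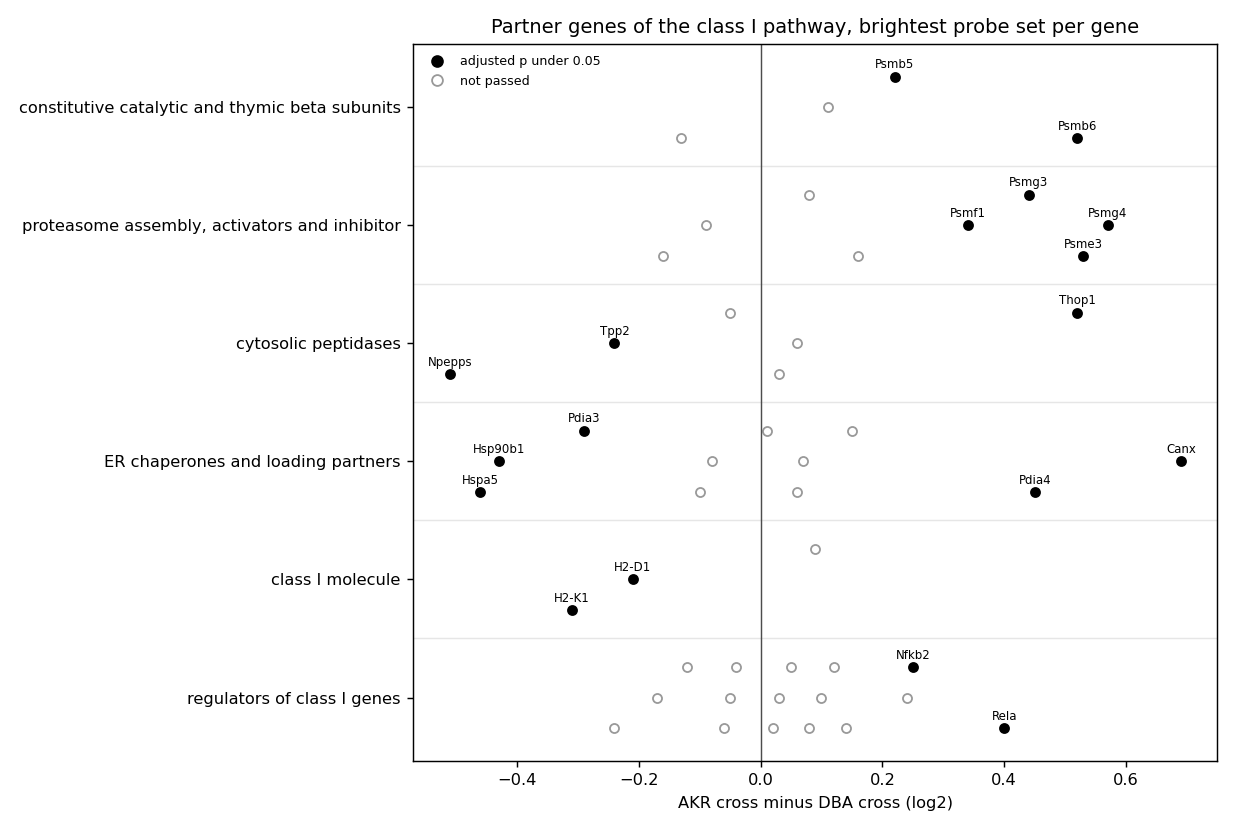
Log2 difference, AKR cross less DBA cross, for the brightest tested probe set of 48 other genes of the class I pathway, in 6 lists. Filled, named points are the 18 calls; the assembly list has 4 calls, all above 0, while the endoplasmic reticulum list has calls from -0.46 for Hspa5 to 0.69 for Canx.

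Interferon-stimulated genes and markers of thymic cell types are given beside the members, and their part in the differences of the members was not tested. Of all genes, 13.1% were called higher and 11.9% lower. Of 19 interferon-stimulated genes, 2 were higher and 8 lower in the AKR cross, with a median of -0.19 and mean levels of 8.24 to 8.37 on the AKR arrays, against 8.40 to 8.48 on the DBA arrays. Oasl2 (-0.96) was the lowest of them, and Socs1 (0.87), an inhibitor of cytokine signalling, the highest. B cell markers had 5 of 9 higher and 0 lower, with mean levels of 8.03 to 8.13 in the AKR cross, against 7.64 to 7.76 in the DBA cross. Medullary epithelial markers had 1 of 9 higher and 5 lower (mean levels of 7.99 to 8.01 in the AKR cross, against 8.09 to 8.18 in the DBA cross). Cortical epithelial markers had 3 of 10 higher and 0 lower (10.62 to 10.69 in the AKR cross, against 10.49 to 10.58 in the DBA cross). Of 9 dendritic cell markers 2 were higher and 0 lower, and of 9 macrophage markers 2 were higher and 2 lower. The share called was 52.6% for the interferon list, 55.6% for B cells, 66.7% for medullary epithelium and 44.4% for macrophages, while 3 of 10 for cortical epithelium and 22.2% for dendritic cells lie near the 25.0% of all genes. Of the markers in these cell lists, Pax5 and Cr2 were under the 40th percentile on 2 of 3 DBA arrays and Cd163 on 1 of 3 AKR arrays.

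The genes whose values over the 6 arrays were most like those of a member, by Pearson's r with its brightest probe set, are given as a description, since 6 arrays in 2 groups leave many probe sets with a high r. For Psmb9 these were Chtf8 (r = 0.9997) and Phxr4 (0.9989). For Psmb10, whose crosses overlapped, they were the coreceptor gene Cd4 (0.9951) and the proteasome gene Psmb3 (0.9916). For Tap1 they were Rad21 (0.9979) and Eif2ak2 (0.9967), and for Tap2 Rdh12 (0.9924) and the thymocyte gene Themis (0.9869). Those of Psmb8 were Adgra2 (0.9989) and Phpt1 (0.9988), and those of Psme1 were Ctsz (0.9967) and Otulin (0.9954). Tapbp had Rasgrp2 (0.9969) and Ngdn (0.9915), Erap1 had Usp48 (0.9963) and Arfgef1 (0.9956), and Calr had Egln3 (0.9963) and Slu7 (0.9921).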

How the data were processed

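The deposited table gives each probe set as a log2 value that the authors made. The submitters' processing notes name MAS5 and RMA, with neither role nor version, so the method behind the values stays unknown. Extraction was with Trizol and labelling with biotin, per the labels' protocols. No further normalization was applied. After removal of 64 controls, testing was limited to the 27385 probe sets that exceeded their array's 40th percentile on 3 or more of the 6 arrays. Arrays correlated at 0.994 to 0.996 within a cross and at 0.984 to 0.989 between crosses, and none were identical. limma 3.58.1 (lmFit, then eBayes with an intensity trend; R 4.3.3) gave two-sided tests and was tested on simulated data. Symbols came from the platform annotation, and 9 of the 9 member genes with a probe set matched the RefSeq gene table by Entrez identifier. Other genes were represented by their brightest tested probe set. Named were all members, called partner genes, the nearest tested neighbours and the most alike genes, and some partner genes outside that rule were added after their values were seen. Within-array ratios had an exact permutation test. The members and lists were chosen with earlier results of these data known. Alternatives were other filters, normalizations, variance models and probe set choices, a floor at the 20th percentile, weighted arrays, a replicate block, and each array left out.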

Additional observations from a re-analysis of the deposited data

How the results depend on the processing

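The count of member probe sets called higher in the AKR cross (4) was 2 without the intensity trend and 2 without probe sets that can match several transcripts, where both Calr probe sets drop out by construction, and it ran from 3 to 6 with an array left out. The count called lower (1) was 2 with the filter at the 60th percentile and 2 with the replicate block, and it ran from 1 to 2 with an array left out. The partner counts moved by less than 1.5 times in every setting run, and with an array left out they ran from 9 to 11 higher and from 5 to 7 lower. The ratio shifts with an array left out ran from -0.06 to 0.00 for Psmb8 to Psmb5, from -0.20 to -0.15 for Psmb9 to Psmb6 and from -0.09 to 0.01 for Psmb10 to Psmb7, so the first and last have no settled direction. Same-numbered arrays deviated together with r of 0.389, 0.07 and 0.371 for numbers 1, 2 and 3, which does not show pairing for number 2, and DBA replicate 2 correlated best with AKR replicate 3 (0.075). With the replicate block 9839 probe sets were called in place of 7449, and among the members it added only the brighter Erap1 probe set (adjusted p = 0.0348, limma). Dim probe sets, such as the second of Psmb8, had wide intervals, and the cause of disagreement between probe sets of a gene was not tested.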
